A study of Mus musculus with 2 samples.

Results

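The genes described here are those that carry a cell from G1 into S phase and copy its DNA: the subunits of the replicative helicase, the factors that license origins, polymerases, primase, the sliding clamp and its loader, enzymes of nucleotide supply, S-phase kinases and the E2F transcription factors. They were chosen by name, as every gene probe on both arrays whose gene name in the scanner files equals 1 of 54 symbols. Probes were found for 52 of the 54 symbols, 81 probes in all, among 27845 gene names on the array. Gins2 and Rfc1 are not analysed here.

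The study measured total RNA of mouse keratinocytes, the main cell type of the epidermis, on 2 two-colour Agilent arrays. Wild-type keratinocytes carried Cy3 on each array and keratinocytes labelled CHUK-LoxP mutant carried Cy5, loxP being the site at which Cre recombinase cuts. Chuk encodes the kinase IKKα, which the series title names as needed for skin homeostasis, and the comparison sets RNA of mutant cells against RNA of wild-type cells. Both arrays have the same dye orientation, so dye and genotype cannot be told apart. Strain, age, the source of Cre and the origin of the RNAs (separate cultures, animals or neither) are not given in the sources used here, and the p-values rest on the spread of 2 arrays, which may be technical.

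Origins of replication are licensed in G1, when the origin recognition complex, CDC6 and CDT1 load rings of MCM proteins onto DNA. Cyclin E with CDK2, and CDC7 with its partner DBF4, then start S phase, in which CDC45 and the GINS complex turn the MCM ring into an active helicase and primase, polymerases and the PCNA clamp copy the strands. E2F factors, held in check by the retinoblastoma family of pocket proteins, drive transcription of most of these genes, and in normal epidermis this programme runs in the basal layer, whose cells divide, and is shut down as cells differentiate.

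Values are log2 ratios of the channel labelled CHUK-LoxP mutant over the wild-type channel on each array, and their mean ± SD (n = 2). Rose and fell mean an adjusted p below 0.05 in limma's fit over all 23519 probes tested, and each gene is represented by its brightest tested probe. The libraries carry limits that touch every value below. Chuk itself read higher in the mutant channel by both of its probes (0.73 and 0.75 on the 2 arrays by one, 0.93 and 0.78 by the other), which goes against a loss of its transcript. A probe outside a deleted part would check nothing, and the place of the probes relative to it is not given in the sources used here, so every direction below rests on the channel labels. Over all gene probes, 53.2% to 64.5% of spots were well above background in a channel. Keratinocyte markers were present, with all 14 of 14 tested (7 higher and 7 lower, median -0.01). They ranged from -0.91 to 1.60, with a log2 of the summed signal of 19.43 and 19.47 in wild type against 19.98 and 20.07. Fibroblast markers were higher in 13 of 15 (median 0.73, log2 of the summed signal 17.39 and 17.05 in wild type against 18.38 and 18.36), melanocyte markers were lower in all 7 tested (median -0.89, summed 15.6 and 15.63 against 14.34 and 14.17), and 5 of 10 immune and 2 of 6 endothelial markers could be tested. Of the 5 immune markers 1 was higher and 3 were lower (median -0.81, summed 12.04 and 11.97 against 11.57 and 11.43), and of the 2 endothelial ones 1 was higher and 1 lower, with the pan-leukocyte gene Ptprc and the endothelial genes Pecam1 and Cdh5 not well above background. The part of these cell types in the results was not tested. In bulk RNA, fewer cells of a type and less RNA per cell cannot be told apart.

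The G1/S and replication genes were measured well and moved little. All 52 were well above background in both channels of both arrays, and none was saturated. Of the 52, 12 rose and 17 fell, while 35.6% of all genes tested rose and 26.7% fell. In either direction, 29 of 52 passed the threshold, which is 55.8%, against 62.3% of all 15861 genes tested, so their count is near the background. That share of all genes depends on which probes are tested. With dim probes tested as well, 11 of the 52 were higher and 16 lower, against 37.7% of all genes called in either direction. Their median log2 ratio was -0.03 (-0.04 on array 1 and -0.03 on array 2), against 0.04 for all genes.

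The sizes of the changes were small. The median size of a change, in either direction, was 0.18 on the log2 scale for the 52 genes and 0.22 for all genes, and 69.2% of them lay within 1.2-fold of equality against 56.6% of all genes. The 52 genes were also brighter, with a median log2 intensity of 11.59 against 9.74 for all genes. Their sizes were not compared with those of genes of like brightness. At least 1.5-fold on both arrays in the same direction was reached by 2 of the 52, E2f2 and Prim2, against 13.1% of all genes. At least 2-fold on both arrays was reached by 1, E2f2, against 4.59% of all genes. The arrays gave the same sign for 47 of the 52 genes, against 89.4% of all genes.

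**Figure D1:**
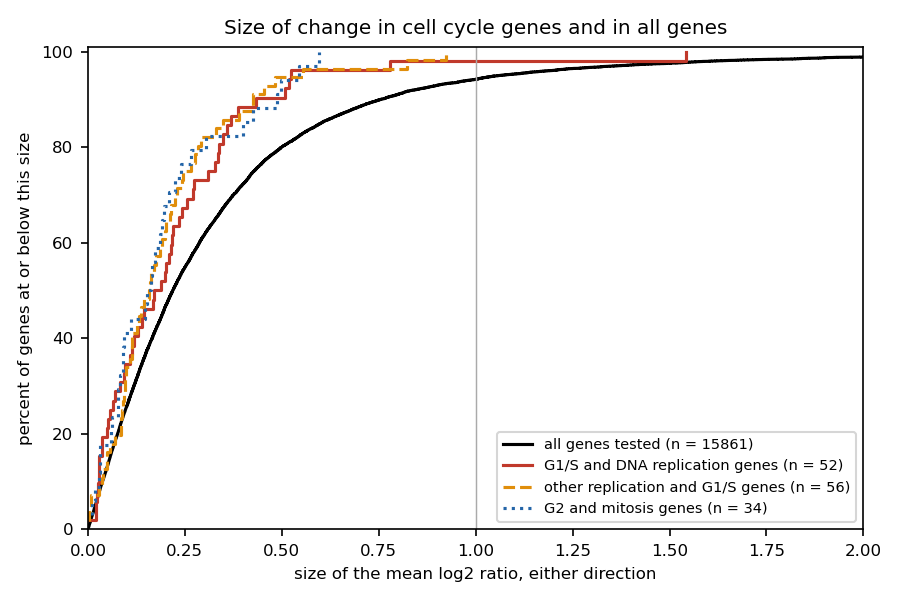
Cumulative share of genes (y axis, percent) by the size of the mean log2 ratio in either direction (x axis) for all 15861 genes tested, the 52 G1/S and replication genes, 56 further replication genes and 34 G2 and mitosis genes. The curves of the cell cycle genes rise faster than that of all genes, with median sizes of 0.18, 0.16 and 0.16 against 0.22, and the grey line marks a change of 2-fold, with genes past the right edge not drawn.

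Which genes count as higher or lower depends on where 0 is set. Loess within each array put the median of all genes at 0.04. Centring each array on its median alone put it at 0.54, and 47 of the 52 genes were then higher and 1 was lower. With those values moved back to the median of all genes under loess, 16 were higher and 9 lower. Of all genes, 66.3% were then called. The 52 genes then had a median of 0.10 against 0.04 for all genes, so they lay above all genes, where loess put them below. Lowering each array by the mean of its spike-in controls put the median of all genes at -0.72, and 0 were then higher and 50 lower. That mean was taken as 0 without a check of the ratios at which the controls were added. Directions below are those under loess, that is, relative to other genes of like brightness. Prim2 lay above 0 and E2f2, Ccne2 and Cdc45l lay below 0 in all 10 settings tried, these included. At their nearest to 0, Prim2 lay at 0.017, Ccne2 at -0.10 and Cdc45l at -0.014, against -0.90 for E2f2. E2f2 was called in all 10 settings and each of the others in 9. In the 8 settings that leave the median of all genes near 0, 15 genes were called in the same direction throughout, of which Cdc7, E2f1, E2f7, Pold1, Rfc2, Rrm2, Uhrf1 and Prim2 were higher and Ccne1, Ccne2, Cdc45l, E2f2, Mcm3, Rfc3 and Rpa2 lower. Except for the mean over a gene's probes, these settings read 1 probe per gene, and second probes of E2f1 and Cdc7 passed no threshold.

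**Figure D2:**
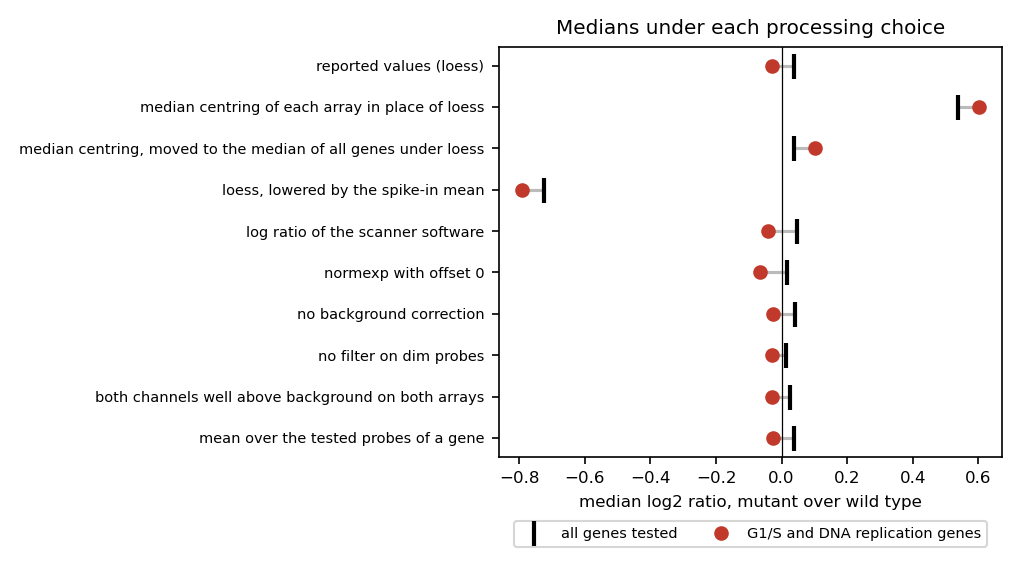
Median log2 ratio (x axis) of the 52 G1/S and replication genes (red points) and of all genes tested (black bars) under each of 10 processing choices (y axis). Lowering by spike-in controls moves both alike, from -0.03 and 0.04 under loess to -0.79 and -0.72. Median centring moves them to 0.60 and 0.54, which puts the 52 genes above all genes instead of below.

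The E2F family showed the largest change of any of these genes. E2f2, which encodes an activating E2F, had a normalised log2 signal of 12.19 in wild type and 11.07 in the mutant channel on array 1, and of 12.04 and 10.07 on array 2. The log2 ratios were -1.12 and -1.97, so both arrays showed a fall, the second a deeper one. The mean was -1.54 ± 0.60, a 2.91-fold fall (adjusted p = 0.00061, limma, 95% confidence interval -1.98 to -1.11), and its size exceeded that of 97.8% of all genes tested. A single probe measured E2f2, and it fell in all 10 settings tried.

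E2f1, the activating E2F best known as a target of the retinoblastoma protein, moved the other way. Its brightest probe gave 0.42 and 0.61, a mean of 0.52 ± 0.13 (1.43-fold, adjusted p = 0.00078). A second probe of E2f1, printed in 10 spots on each array, gave -0.10 and -0.16 and did not pass the threshold (adjusted p = 0.072). Its spots ranged from -0.21 to 0.02 on array 1 and from -0.25 to -0.10 on array 2, so both arrays placed it below the other probe, and the direction of E2f1 rests on which probe is read.

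E2f7 and E2f8 encode atypical E2Fs that repress E2F target genes. E2f7 gave 0.28 and 0.38 (0.33 ± 0.07, adjusted p = 0.0028) by its brighter probe and 0.82 on each array by the other, and both probes rose. E2f8 gave 0.30 and 0.13 (0.22 ± 0.12, adjusted p = 0.022) and missed the threshold with the ratios of the scanner software and with normexp at offset 0 (adjusted p = 0.081 and 0.096). E2f3, the remaining activator, lay at 0.08 and 0.18 (95% interval -0.0042 to 0.26), and Rbl1, which encodes the pocket protein p107, at -0.01 and 0.13 (interval -0.09 to 0.20). Dimmer tested probes of E2f3 lay at -0.04 and -0.13 and at 0.05 and -0.01, and passed no threshold. Of these 6 genes, 5 lay above 0 under loess and under median centring alone, and none did after lowering by spike-in controls. E2f1 exceeded E2f2 by 1.54 on array 1 and 2.58 on array 2, and by 1.98 on average under median centring.

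**Figure D3:**
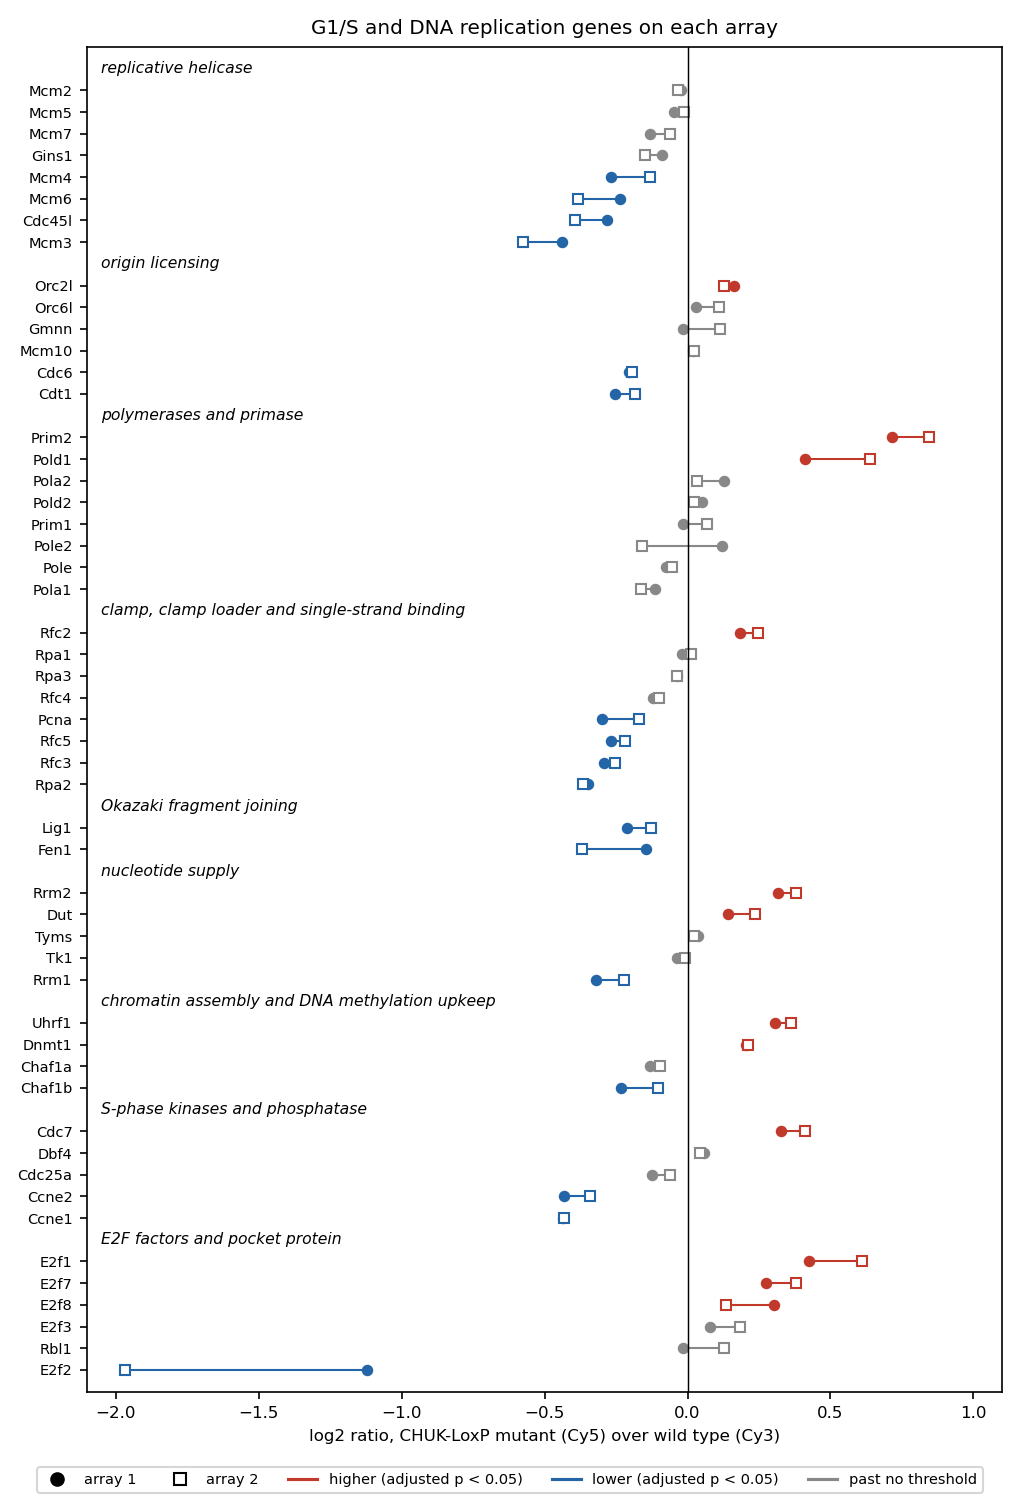
Log2 ratio of the CHUK-LoxP mutant over the wild-type channel (x axis) of each of the 52 genes (y axis, grouped by role) on array 1 (filled circles) and array 2 (open squares), under loess. E2f2 lies apart at -1.12 and -1.97, Prim2 is the highest at 0.72 and 0.84, and most other genes lie within 0.5 of 0, a line that other scalings move.

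Among the kinases that start S phase, both cyclin E genes fell under loess. Ccne1, which encodes cyclin E1, gave -0.44 and -0.43 (-0.43 ± 0.0041, 1.35-fold, adjusted p = 0.00067), and its second probe gave the same mean of -0.43. Ccne2, which encodes cyclin E2, gave -0.43 and -0.34 (-0.39 ± 0.06, adjusted p = 0.0013) and -0.20 by its second probe, which fell as well. All 4 values of the brighter probes lay below 0, and the pair differed by 0.0035 on array 1 and 0.09 on array 2. Under median centring alone Ccne1 was higher, at 0.26, and Ccne2 lay at -0.10 (adjusted p = 0.39), a difference of 0.36.

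Cdc7, the kinase that phosphorylates the MCM ring, rose, with 0.33 and 0.41 (0.37 ± 0.06, adjusted p = 0.0015). A second probe of Cdc7 gave 0.13 and -0.03 and did not pass the threshold. Dbf4, its activating subunit, lay at 0.06 and 0.04 (95% interval -0.07 to 0.18), so the brightest probe of Cdc7 exceeded that of its partner by 0.27 and 0.37 on the arrays. A second probe of Dbf4 gave 0.20 and 0.10 and lay above the second probe of Cdc7 on average (0.15 against 0.05), and over the mean of each gene's probes the difference was 0.11. Cdc25a, the phosphatase that activates CDK2, lay at -0.12 and -0.06 (interval -0.22 to 0.04). Its other tested probe lay above 0, at 0.12 and 0.05, and passed no threshold either.

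E2F factors bind a motif of the form TTTCCCGC, TTTGGCGC, TTTCGCGC or TTTGCCGC, and the promoters of these genes were searched for exactly these letters on both strands. The windows are those RefSeq gives on GRCm38.p6, from 250 bases before to 50 after a start. Some genes have several starts and so several windows, and a gene counted as matched if any of them held the motif. In Mcm7, Uhrf1, E2f2 and E2f3 only 1 of 2 windows did, and in Lig1 and Dnmt1 only 1 of 3. Windows were matched for 46 of the 54 symbols, 3 of them through a synonym, and Mcm4, Gins1, Gins2, Gmnn, Prim2, Pole, Rfc2 and Ccne2 had none. A match stood in 18 of the 46, or 39.1%, against 2.6% of all 27025 genes with a window and 2.26% of all 32851 windows of this length. There were 25 matches in all, and 6 genes held several, of which those on opposite strands overlapped in Mcm5 and Mcm6. A match describes the sequence and does not show binding.

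Matches were found among genes that moved in either direction. They stood in 4 of 10 genes that rose, in 7 of 15 that fell and in 7 of 20 that passed no threshold. The 18 genes with a match ranged from -1.54 to 0.52, with a median of -0.09, and the 27 measured genes without one from -0.43 to 0.52, with a median of -0.0027. The ranges overlapped, with E2f2 and Mcm3 below the lowest gene without a match.

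The windows below are those of the genes with a match that fell most and rose most, shown because genes that moved in opposite directions share the motif. All are given from 5′ to 3′ on the gene's own strand, with the motif, read on either strand, in capitals. E2f2 lies at chr4:136172024-136172323 on the plus strand, Mcm3 at chr1:20820263-20820562 and Mcm6 at chr1:128359656-128359955 on the minus strand, Pold1 at chr7:44548766-44549065 on the minus strand, and Uhrf1 at chr17:56304063-56304362 and E2f7 at chr10:110745189-110745488 on the plus strand.
E2f2: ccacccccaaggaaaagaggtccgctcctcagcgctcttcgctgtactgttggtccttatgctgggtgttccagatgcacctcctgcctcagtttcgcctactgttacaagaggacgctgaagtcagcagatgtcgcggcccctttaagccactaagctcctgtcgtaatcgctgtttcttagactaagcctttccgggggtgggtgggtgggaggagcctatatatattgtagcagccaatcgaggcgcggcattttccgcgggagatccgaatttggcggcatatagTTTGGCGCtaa
Mcm3: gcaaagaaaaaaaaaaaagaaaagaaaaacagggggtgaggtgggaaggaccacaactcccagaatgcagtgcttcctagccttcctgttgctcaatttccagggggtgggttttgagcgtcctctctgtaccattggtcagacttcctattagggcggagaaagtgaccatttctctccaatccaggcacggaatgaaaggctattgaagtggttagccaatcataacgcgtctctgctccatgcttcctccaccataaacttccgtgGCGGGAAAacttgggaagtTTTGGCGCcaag
Mcm6: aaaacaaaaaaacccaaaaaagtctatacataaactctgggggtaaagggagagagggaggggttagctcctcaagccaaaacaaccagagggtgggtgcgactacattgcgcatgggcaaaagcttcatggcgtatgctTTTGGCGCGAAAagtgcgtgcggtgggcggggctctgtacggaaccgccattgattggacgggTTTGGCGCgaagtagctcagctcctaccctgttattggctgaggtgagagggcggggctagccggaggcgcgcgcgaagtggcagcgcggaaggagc
Pold1: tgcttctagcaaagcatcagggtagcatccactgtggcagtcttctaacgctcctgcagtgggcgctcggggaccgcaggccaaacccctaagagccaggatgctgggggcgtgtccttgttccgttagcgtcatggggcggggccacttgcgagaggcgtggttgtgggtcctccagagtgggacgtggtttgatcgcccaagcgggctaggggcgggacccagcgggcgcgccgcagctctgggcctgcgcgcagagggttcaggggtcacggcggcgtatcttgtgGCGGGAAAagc
Uhrf1: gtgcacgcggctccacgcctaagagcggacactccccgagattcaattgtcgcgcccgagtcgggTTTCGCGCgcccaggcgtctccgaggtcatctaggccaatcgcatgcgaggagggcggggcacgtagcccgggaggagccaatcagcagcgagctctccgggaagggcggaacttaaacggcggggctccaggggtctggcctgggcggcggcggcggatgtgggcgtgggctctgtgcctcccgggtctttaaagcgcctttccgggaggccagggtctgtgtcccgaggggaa
E2f7: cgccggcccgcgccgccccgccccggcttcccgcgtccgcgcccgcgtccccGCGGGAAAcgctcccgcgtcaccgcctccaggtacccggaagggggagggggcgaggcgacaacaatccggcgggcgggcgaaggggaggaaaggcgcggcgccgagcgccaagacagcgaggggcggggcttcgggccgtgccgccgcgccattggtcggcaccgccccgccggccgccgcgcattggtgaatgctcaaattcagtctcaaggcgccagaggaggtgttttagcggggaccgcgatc
E2f2, Mcm3 and Mcm6 are genes that fell, and Pold1, Uhrf1 and E2f7 are genes that rose. The match of E2f2 and those of Mcm3 lie just after the start, while Mcm6 has an overlapping pair about 100 bases before it and another match nearer to it.

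**Figure D4:**
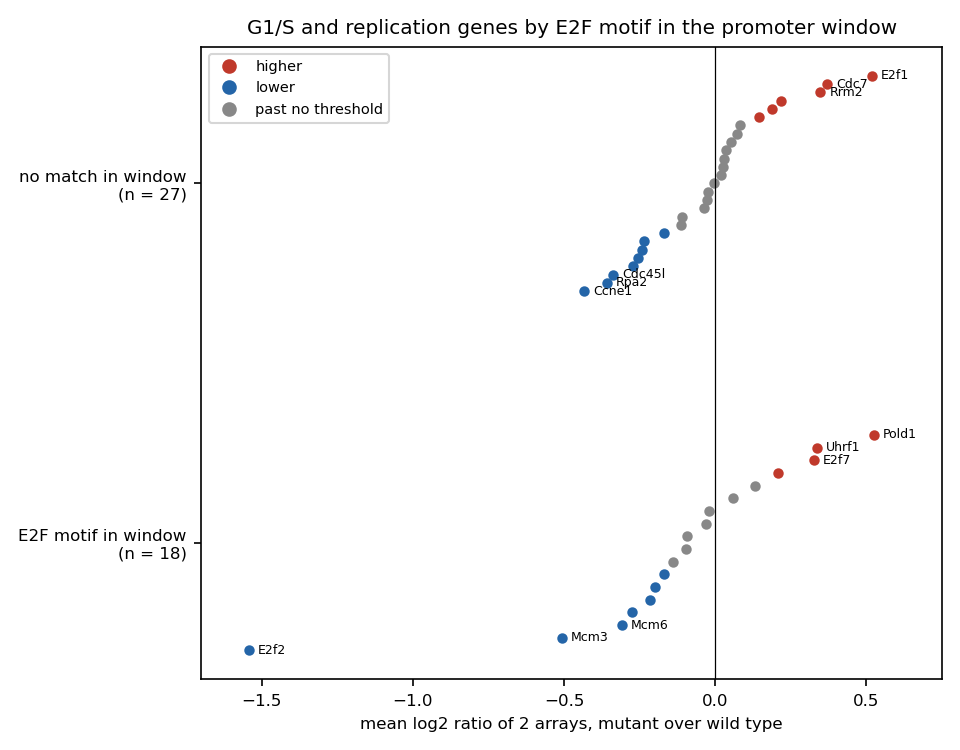
Mean log2 ratio of both arrays (x axis) of the 45 measured genes with a promoter window, by whether the window holds an E2F motif (18 genes) or not (27 genes), and named where the size exceeds 0.3. Genes that rose, fell or passed no threshold occur in both rows.

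Among the genes grouped under origin licensing, Cdc6 and Cdt1, the loaders of the MCM ring, fell under loess. Cdt1 gave -0.25 and -0.18 (-0.22 ± 0.05, adjusted p = 0.013), and Cdc6 gave -0.21 and -0.19 (-0.20 ± 0.0089, adjusted p = 0.015). A second probe of Cdc6 lay at -0.03 and -0.02 and passed no threshold, and over the mean of both probes Cdc6 lay at -0.11 (adjusted p = 0.078). Cdt1 lost the threshold with the scanner software's ratios (-0.22, adjusted p = 0.059), and with median centring moved back to the same median of all genes it lay at 0.0029 while Cdc6 lay at -0.22.

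The other genes of this group moved less. Orc2l, an origin recognition subunit, rose slightly, with 0.16 and 0.13 (adjusted p = 0.049), and did not pass with the scanner software's ratios, with normexp at offset 0 or without the filter on dim probes (adjusted p = 0.11, 0.17 and 0.08). Orc6l lay at 0.03 and 0.11, Mcm10 at 0.02 on each array, and Gmnn, which encodes the CDT1 inhibitor geminin, at -0.02 and 0.11. Of the 6 genes, 4 lay above 0 under loess, 6 under median centring alone and 0 after lowering by spike-in controls.

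All 8 helicase genes measured lay below 0 on both arrays under loess, and 4 of them fell. Under median centring alone, however, 7 of 8 lay above 0. With median centring moved back to the same median of all genes, 4 lay above 0 and 4 below. Their median was then 0.02, and 2 were called lower. Mcm3 fell most, with -0.44 and -0.58 (-0.51 ± 0.10, 1.42-fold, adjusted p = 0.0006), and its second probe gave -0.30 and -0.34 and fell too. Mcm6 gave -0.24 and -0.38 (-0.31 ± 0.10, adjusted p = 0.0046), and Mcm4 gave -0.27 and -0.13 (-0.20 ± 0.10, adjusted p = 0.024). Mcm4 lost its call with the scanner software's ratios and with normexp at offset 0 (adjusted p = 0.11 and 0.053). With median centring moved back to the same median of all genes, Mcm6 lay at -0.025 (adjusted p = 0.78) and Mcm4 at 0.06.

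The rest of the MCM ring stayed close to 0. Mcm2 gave -0.02 and -0.03 (95% interval -0.15 to 0.10), Mcm5 gave -0.05 and -0.01 (interval -0.15 to 0.10), and Mcm7 gave -0.13 and -0.06 (interval -0.22 to 0.03). These 3 missed the threshold, although all 6 ring subunits lay below 0 on both arrays under loess. The ring subunits were thus unequal: Mcm3 lay below Mcm5 by 0.39 on array 1 and by 0.56 on array 2.

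Of the proteins that switch the ring on, Cdc45l fell, with -0.28 and -0.39 (-0.34 ± 0.08, 1.26-fold, adjusted p = 0.0026). Gins1 lay at -0.09 and -0.15 by its brightest probe and passed no threshold (adjusted p = 0.094). Its second probe gave -0.50 and -0.51 and fell (adjusted p = 0.00037). Averaged over both probes, Gins1 fell by 0.31 (adjusted p = 0.0031).

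Polymerase and primase genes split within their complexes. Prim2, the large subunit of primase, which makes the RNA primer, gave 10.69 in wild type and 11.4 in the mutant channel on array 1 and 10.32 and 11.16 on array 2 (normalised log2 signal). Its log2 ratios were 0.72 and 0.84, a mean of 0.78 ± 0.09 (1.72-fold, adjusted p = 0.00012), the highest of the 52 genes. A second and much dimmer probe (mean log2 intensity 6.74 against 10.9) gave 0.59 and 0.37 and rose too. After lowering by spike-in controls Prim2 lay at 0.017 and lost the call (adjusted p = 0.897). Prim1, the catalytic subunit, lay at -0.02 and 0.07 (95% interval -0.10 to 0.16), so Prim2 exceeded it by 0.73 and 0.78 on the arrays, and by 0.71 on average under median centring.

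Pold1, the catalytic subunit of polymerase δ, rose as well, with 0.41 and 0.64 (0.52 ± 0.16, 1.44-fold, adjusted p = 0.00098). Its second probe gave 0.38 and 0.55 and rose, while after lowering by spike-in controls the brighter probe lay at -0.24. Pold2, the subunit that binds it, lay at 0.05 and 0.02 (interval -0.09 to 0.16), which left differences of 0.36 and 0.61 between the 2 genes.

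The other polymerase genes passed no threshold. Pole, the catalytic subunit of polymerase ε, lay at -0.07 and -0.06, and Pole2 lay on opposite sides of 0, at 0.12 and -0.16. Pola1, the catalytic subunit of polymerase α, gave -0.11 and -0.16 (adjusted p = 0.058). Pola2, its accessory subunit, gave 0.13 and 0.03 by the brightest probe and 0.53 and 0.42 by a dimmer one, which rose (adjusted p = 0.00065). With the mean of each gene's probes in place of the brightest, Pola1 lay at -0.14 and Pola2 at 0.28, and both passed (adjusted p = 0.047 and 0.0064). Of the 8 genes, 5 lay above 0 under loess, 8 under median centring alone and 1 after lowering by spike-in controls.

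At the clamp, Pcna, which encodes the ring that holds polymerases on DNA, fell slightly. Its probe is printed in 10 spots, which ranged from -0.35 to -0.25 on array 1 and from -0.19 to -0.13 on array 2. The array means were -0.30 and -0.17 (-0.23 ± 0.09, adjusted p = 0.013), so the spread between the arrays was wider than the spot SDs of 0.026 and 0.022. The call was lost with the scanner software's ratios (-0.22, adjusted p = 0.067), and with median centring moved back to the same median of all genes Pcna lay at 0.026.

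Of the clamp loader, Rfc3 fell, with -0.29 and -0.25 (-0.27 ± 0.03, adjusted p = 0.0045), and so did Rfc5, with -0.27 and -0.22 (-0.24 ± 0.03, adjusted p = 0.0076). With median centring moved back to the same median of all genes Rfc5 lay at -0.09 and lost its call (adjusted p = 0.31). Rfc2 rose, with 0.18 and 0.24 (0.21 ± 0.04, adjusted p = 0.013), and its second probe rose too, with 0.37 and 0.38. Rfc4 lay at -0.12 and -0.10. Rfc2 exceeded Rfc3 by 0.48 on array 1 and 0.50 on array 2, and by 0.81 on average under median centring.

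Replication protein A coats single-stranded DNA at the fork. Its middle subunit gene Rpa2 fell, with -0.35 and -0.37 (-0.36 ± 0.01, 1.28-fold, adjusted p = 0.0014), and its second probe gave -0.18 and -0.16 and fell too. The large subunit gene Rpa1 lay at -0.02 and 0.01 (interval -0.13 to 0.12), and Rpa3 at -0.04 on each array. Of the 8 clamp, loader and replication protein A genes, 7 lay below 0 under loess and 0 under median centring alone. With median centring moved back to the same median of all genes, 5 lay above 0 and 3 below, with a median of 0.038.

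Both genes that process and seal Okazaki fragments, the short pieces of the lagging strand, fell under loess and lay above 0 under median centring alone. The flap nuclease gene Fen1 gave -0.15 and -0.37 (-0.26 ± 0.16, adjusted p = 0.017), and the ligase gene Lig1 gave -0.21 and -0.13 (-0.17 ± 0.06, adjusted p = 0.033). Neither passed with the scanner software's ratios (adjusted p = 0.075 and 0.093), and Lig1 did not pass with normexp at offset 0 (adjusted p = 0.061). With median centring moved back to the same median of all genes, Fen1 lay at -0.14 (adjusted p = 0.14) and Lig1 at 0.029.

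Ribonucleotide reductase, which makes deoxyribonucleotides, showed opposite changes in its 2 subunits under loess. Both lay above 0 under median centring alone and below 0 after lowering by spike-in controls. Rrm2, the small subunit that limits its activity in S phase, rose, with 0.32 and 0.38 (0.35 ± 0.04, 1.27-fold, adjusted p = 0.0018). Rrm1, the large subunit, fell, with -0.32 and -0.22 (-0.27 ± 0.07, 1.21-fold, adjusted p = 0.0059). Rrm2 exceeded Rrm1 by 0.64 on array 1 and 0.60 on array 2, and by 0.53 to 0.65 on average under median centring, the scanner software's ratios and normexp at offset 0. With median centring moved back to the same median of all genes Rrm1 lay at -0.013 (adjusted p = 0.89).

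Among the thymidylate enzymes, Dut, which removes dUTP, rose by both probes, with 0.14 and 0.24 (0.19 ± 0.07, adjusted p = 0.024) and with 0.27 and 0.36. The call of its brighter probe was lost with the scanner software's ratios and with normexp at offset 0 (adjusted p = 0.076 and 0.071). Tyms, thymidylate synthase, lay at 0.03 and 0.02 (interval -0.10 to 0.15), and its second tested probe lay at 0.05 and 0.04. Tk1, thymidine kinase, lay at -0.04 and -0.0099 (interval -0.15 to 0.10). Of the 5 nucleotide genes, 3 lay above 0 under loess, 5 under median centring alone and 0 after lowering by spike-in controls.

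Under loess, both genes that copy the DNA methylation pattern rose, and neither gene of the histone depositing complex did. Uhrf1, which recognises hemimethylated DNA behind the fork, gave 0.31 and 0.36 (0.33 ± 0.04, 1.26-fold, adjusted p = 0.0021), and a second probe gave 0.28 and 0.41 and rose too. Dnmt1, the methyltransferase that UHRF1 recruits, gave 0.21 on each array (0.21 ± 0.005, adjusted p = 0.013) and lost its call with the scanner software's ratios (0.23, adjusted p = 0.051). After lowering by spike-in controls the pair lay at -0.43 and -0.55. Chaf1b of chromatin assembly factor 1 fell, with -0.23 and -0.10 (-0.17 ± 0.09, adjusted p = 0.043), and Chaf1a lay at -0.13 and -0.10 (adjusted p = 0.0997). Chaf1b lost its call with the scanner software's ratios, with normexp at offset 0 and without the filter (adjusted p = 0.13, 0.069 and 0.059), and with median centring moved back it lay at 0.0074.

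Several of these genes were read by more than 1 tested probe, which shows how far the choice of probe matters on the same RNA. Of 19 such genes, all probes agreed on the call in 14, of which 10 were called: Dut, E2f7, Pold1, Prim2, Rfc2 and Uhrf1 rose and Ccne1, Ccne2, Mcm3 and Rpa2 fell. Among all 5509 genes with several tested probes, 31% had all of them called in 1 direction. In 5 genes, namely Cdc6, Cdc7, E2f1, Gins1 and Pola2, some probes passed the threshold and others did not, and in 0 were probes called in opposite directions. The widest gap between probes of a gene was that of E2f1 (0.65), followed by E2f7 (0.50). Whether the probes read different transcripts was not tested.

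**Figure D5:**
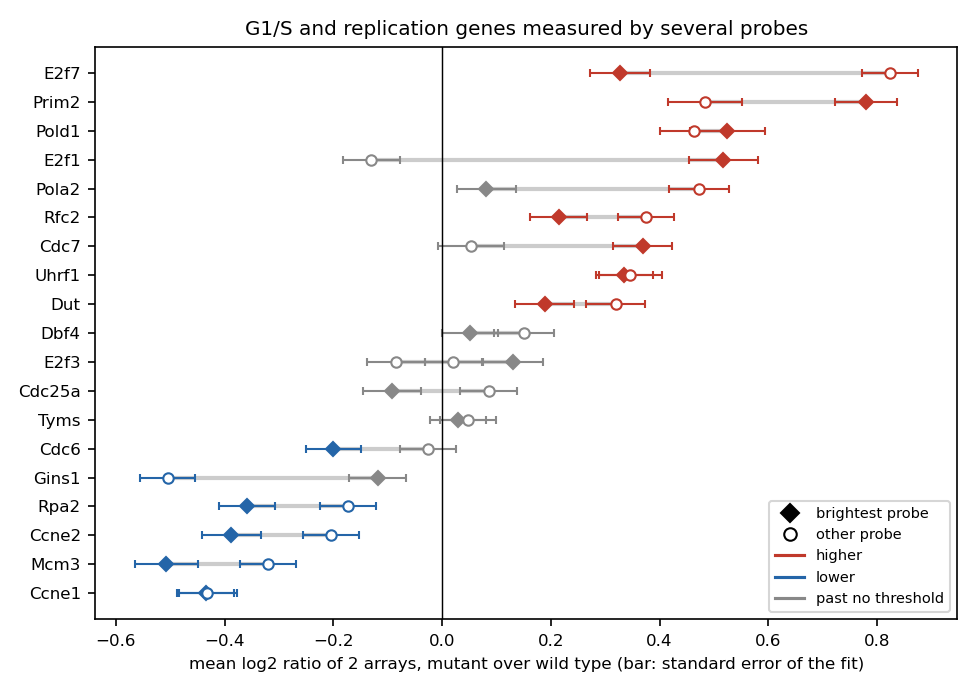
Mean log2 ratio of both arrays (x axis) for every tested probe of the 19 genes measured by several (y axis), with the standard error of the fit as bars. Filled diamonds mark the brightest probe, which stands for the gene, and the probes of E2f1, E2f7, Gins1 and Pola2 lie farthest apart.

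A longer list of replication and G1/S genes was described in the same way. Of 56 further genes tested, out of 60 listed, 19 rose and 10 fell, against 35.6% and 26.7% of all genes, with a median of 0.04. The fork protection gene Timeless rose most, with 0.79 and 1.06 (0.92 ± 0.19), followed by Rif1, which controls the timing of origins (0.82 ± 0.08), Tfdp2, a dimer partner of E2Fs (0.55 ± 0.07), the helicase gene Recql4 (0.48 ± 0.14) and Cdca7 (0.45 ± 0.08). The histone chaperone gene Asf1b fell most (-0.43 ± 0.11), with Cdk2, the kinase that cyclin E activates (-0.43 ± 0.03), Rnaseh2b (-0.35 ± 0.09), Usp1 (-0.28 ± 0.02) and Slbp (-0.24 ± 0.07). Cdk2 gave -0.41 and -0.44, so it lay below 0 on both arrays, as both cyclin E genes did under loess. Under median centring alone 53 of the 56 were higher and 1 was lower, and after lowering by spike-in controls 0 were higher and 53 lower.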

How the data were processed

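Total RNA of wild-type (Cy3) and CHUK-LoxP mutant (Cy5) mouse keratinocytes was compared on 2 arrays from 1 slide. The authors deposited scanner output, which the software Agilent Feature Extraction (9.1.3.1) wrote per the file headers, with each spot's mean intensity and local background intensity, neither corrected, and a processed intensity that the software corrected for background and dye. Also deposited, per the file headers, was a log10 ratio of the processed signals, which the series' value table repeats to within 0.005.

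From the intensities, log2 ratios were computed in R 4.3.3 with limma 3.58.1 (normexp, offset 50, then loess within each array, control spots at weight 0) and the package data.table (1.17.8). Outlier spots (51 and 18) were left out, and replicate spots were reduced to their mean. A probe was tested where a channel lay well above background on both arrays, as for 23519 of 41174. Their mean log2 ratios were fitted with lmFit and eBayes (two-sided, against 0), and p-values were adjusted by Benjamini-Hochberg over all tested probes. The fit has 1 residual and 5.16 prior degrees of freedom. The number of arrays limits the precision. The code was tested on simulated data. Normalised log2 signals per channel are after Aquantile. Of the 81 probes of these genes, 72 were tested, and all 62 that matched a RefSeq accession bore the gene's own symbol or synonym. The rest could not be checked in this way. Among them were the brightest probes of Mcm3, Rpa2, Gins1, Cdc25a and E2f3 and the only probe of Rfc3.

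The genes and the lists were chosen with earlier results of these data known. The rule for named genes took every gene of the set and, of the other lists, up to 5 in each direction past the threshold with the same sign on both arrays. Alternatives covered scaling, background correction, the filter, the choice of probe and each array left out.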

Additional observations from a re-analysis of the deposited data

How the results depend on the processing

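Most directions depended on the scaling. With median centring of each array in place of loess, 47 of the 52 G1/S and replication genes were higher and 1 lower (median 0.60), as were 53 and 1 of the further replication genes and 28 and 0 of the G2 and mitosis genes (limma). The genes that changed sign were Mcm2 at 0.60, Mcm3 at 0.23, Mcm4 at 0.56, Mcm5 at 0.62, Mcm6 at 0.47, Mcm7 at 0.64, Gins1 at 0.48, Cdc6 at 0.28, Cdt1 at 0.50, Pola1 at 0.48, Pole at 0.60, Pole2 at 0.52, Pcna at 0.53, Rfc3 at 0.14, Rfc4 at 0.56, Rfc5 at 0.41, Rpa1 at 0.68, Rpa2 at 0.23, Rpa3 at 0.55, Fen1 at 0.36, Lig1 at 0.53, Rrm1 at 0.49, Tk1 at 0.68, Chaf1a at 0.53, Chaf1b at 0.51, Ccne1 at 0.26 and Cdc25a at 0.26. With the median of all genes moved back to that under loess, 9 of the 52 were lower (median 0.10), 5 of the further genes were lower, and 13 G2 and mitosis genes were higher and 7 lower. Of the genes called under loess, Mcm4 at 0.060, Cdt1 at 0.0029, Pcna at 0.026, Lig1 at 0.029 and Chaf1b at 0.0074 changed sign, and of the uncalled ones Mcm2, Mcm5, Mcm7, Pole, Pole2, Rfc4, Rpa1, Rpa3, Tk1 and Chaf1a did, at 0.025 to 0.18. Lowered by the spike-in mean, 0 of the 52 were higher and 50 lower (median -0.79), 0 and 53 of the further genes, and 0 and 33 of the G2 and mitosis genes, with Orc2l at -0.62, Orc6l at -0.69, Gmnn at -0.71, Mcm10 at -0.74, Pola2 at -0.68, Prim1 at -0.74, Pold1 at -0.24, Pold2 at -0.73, Rfc2 at -0.55, Rrm2 at -0.42, Tyms at -0.73, Dut at -0.57, Uhrf1 at -0.43, Dnmt1 at -0.55, Cdc7 at -0.39, Dbf4 at -0.71, E2f1 at -0.25, E2f3 at -0.63, E2f7 at -0.44, E2f8 at -0.55 and Rbl1 at -0.71. With the scanner software's ratios 11 of the 52 were lower (median -0.041), 11 further genes were higher and 5 lower, and 2 G2 and mitosis genes were higher and 7 lower. With normexp at offset 0 the median was -0.066, and 11 further genes and 3 G2 and mitosis genes were higher. The median was -0.026 without background correction and -0.025 over the mean of each gene's probes, and -0.034 to -0.036 with either array left out. Lowering by the spike-in mean moves all genes alike by construction. Median centring moved back leaves the median of all genes at 0.04, as under loess, yet genes still changed sign, and the cause was not tested. Nor was it tested for the other settings. No other count of calls in these lists moved by over 1.5 times. Counts within the groups by role and counts over all genes moved further in places. With median centring moved back, for example, 2 helicase genes were lower, against 4 under loess. With 1 array left there is no residual spread, so counts of calls were not made, and every gene called kept its sign on each array alone. The arrays share 1 slide, so a slide block was not run. No paired analysis was possible because the arrays form 1 group.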

Other observations

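The G2 and mitosis genes, which act after DNA is copied, moved as little as the replication genes. Of 34 tested, out of 36 listed, 7 rose and 11 fell, with a median log2 ratio of -0.03, while 35.6% of all genes rose and 26.7% fell. None reached 1.5-fold on both arrays, that is, a count of 0 of 34, against 13.1% of all genes. The securin gene Pttg1 rose most (0.60 ± 0.10), followed by Incenp of the chromosomal passenger complex (0.50 ± 0.16), Cenpf (0.30 ± 0.11), Kif23 (0.20 ± 0.09) and Ccna2 (0.17 ± 0.04). The mitotic kinase gene Nek2 fell most (-0.54 ± 0.07), with Cdc2a, which encodes CDK1 (-0.49 ± 0.03), Nusap1 (-0.43 ± 0.02), the spindle checkpoint gene Mad2l1 (-0.40 ± 0.0051) and Top2a (-0.27 ± 0.06). Under median centring alone 28 were higher and 0 lower, and after lowering by spike-in controls 0 were higher and 33 lower.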
